A study of Mus musculus with 4 samples.

Results

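The bone morphogenetic protein (BMP) genes described here are 10 chosen out of the 32285 genes listed in the count matrices: the ligands Bmp2, Bmp4 and Bmp7, the transcriptional targets Id1, Id2 and Id3, the inhibitory Smads Smad6 and Smad7, and the secreted antagonists Grem1 and Fst. All 10 were present in the 4 matrices, and all 10 reached 20 UMIs (unique molecular identifiers, 1 per captured transcript) over the keratinocytes of both libraries at each of the 2 time points. The cells came from the epidermis of adult mouse back skin and were measured by droplet single-cell RNA sequencing, with 1 library for each combination of genotype and time. Control mice were DNp63fl/fl and experimental mice were DNp63fl/fl;K14-CreT2, so that the floxed allele is shared by both and the tamoxifen-activated Cre, driven by the keratin 14 promoter of basal epithelial cells, is carried by the experimental mice. Every group received 200 mg/kg tamoxifen by mouth on each of 5 days, and the skin was taken 1 day or 1 week after ablation. The labels give ages of 2 to 17 months and equal numbers of males and females for the study, but not which animals, ages or digestion (0.25% trypsin at 4 °C or at 37 °C) went into which library, or how many animals were pooled.

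BMP ligands bind paired type I and type II receptors, which phosphorylate Smad1, Smad5 and Smad9. These enter the nucleus with Smad4 and switch on the Id genes, which encode inhibitors of basic helix-loop-helix factors, and also Smad6 and Smad7, which damp the signal inside the cell. Gremlin 1 and follistatin act outside the cell by binding ligands, follistatin with a preference for activins. In skin, BMP signals are known for holding hair follicle stem cells of the bulge at rest and for promoting differentiation, and antagonists made in and around the follicle counter them at the onset of growth.

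A 3' kit was used at 1 day and a 5' kit at 1 week, so levels are compared within a time point only. The matrices held 33552 and 32212 barcodes for the control and experimental mice at 1 day, and 25039 against 18413 at 1 week, with 179736563, 144323031, 88903603 and 68191870 gene UMIs, and 22298, 23651, 19879 and 15626 cells were kept after filtering and removal of likely doublets. Cells were grouped into classes by clustering without the 10 genes or their pathway, and each class is called "-like" after its markers, or after 1 of its 10 leading genes where no name could be given. With 1 library in each group, the differences below have no replicate check and no test; an interval given with a value is a 95% interval that covers counting error only, and "past 2-fold" describes these libraries. In the bulge-like class all 11 bulge markers were detected in every library, and Cd34, a surface marker of bulge stem cells, stood at 451 and 479 CPM at 1 day, then at 589.5 and 672 CPM. Keratinocyte classes made up 92.0% and 68.0% of kept cells at 1 day but 29.4% and 15.6% at 1 week, where a low-UMI class of 11425 and 11290 cells was left unnamed and out of the comparison, as was one of 18 and 2641 cells at 1 day. Krt8-led cells, 3722 and 692 in the experimental libraries against 2 and 1 in the controls, were also left out. So were 1682 control and 370 experimental cells at 1 week in clusters of mixed markers. Slpi-led keratinocytes, 5572 of the 16086 experimental and 5 of the 20512 control keratinocytes at 1 day, were kept, so the 1-day ratios over keratinocytes include a class found almost wholly in 1 library. A level is a gene's UMIs in counts per 1000000 gene UMIs of the class (CPM). Barcodes shared by the libraries of a time point numbered 299 at 1 day and 661 at 1 week, and leaving them out moved none of the 168 ratios computed for the larger classes beyond its interval. In the 1-day libraries RNA of other cells was found in T-cell-like cells, where the keratinocyte marker list summed to 13307 CPM in the control library and to 28973 CPM in the experimental library. The part of this RNA in the ratios at 1 day was not tested. The T-cell-like cells at 1 day had a median of 1241 UMIs in the control and 2865 UMIs in the experimental library.

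Trp63 is the targeted gene, and the labels name its DNp63 form as the one ablated. The counts are of the whole gene and do not separate its forms. Over keratinocytes it stood at 404 CPM in control and 124 CPM in experimental cells at 1 day, and at 449.5 against 193 CPM at 1 week. Bulge-like cells had 427 and 301 CPM at 1 day, then 546 and 355 CPM at 1 week.

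**Figure D1:**
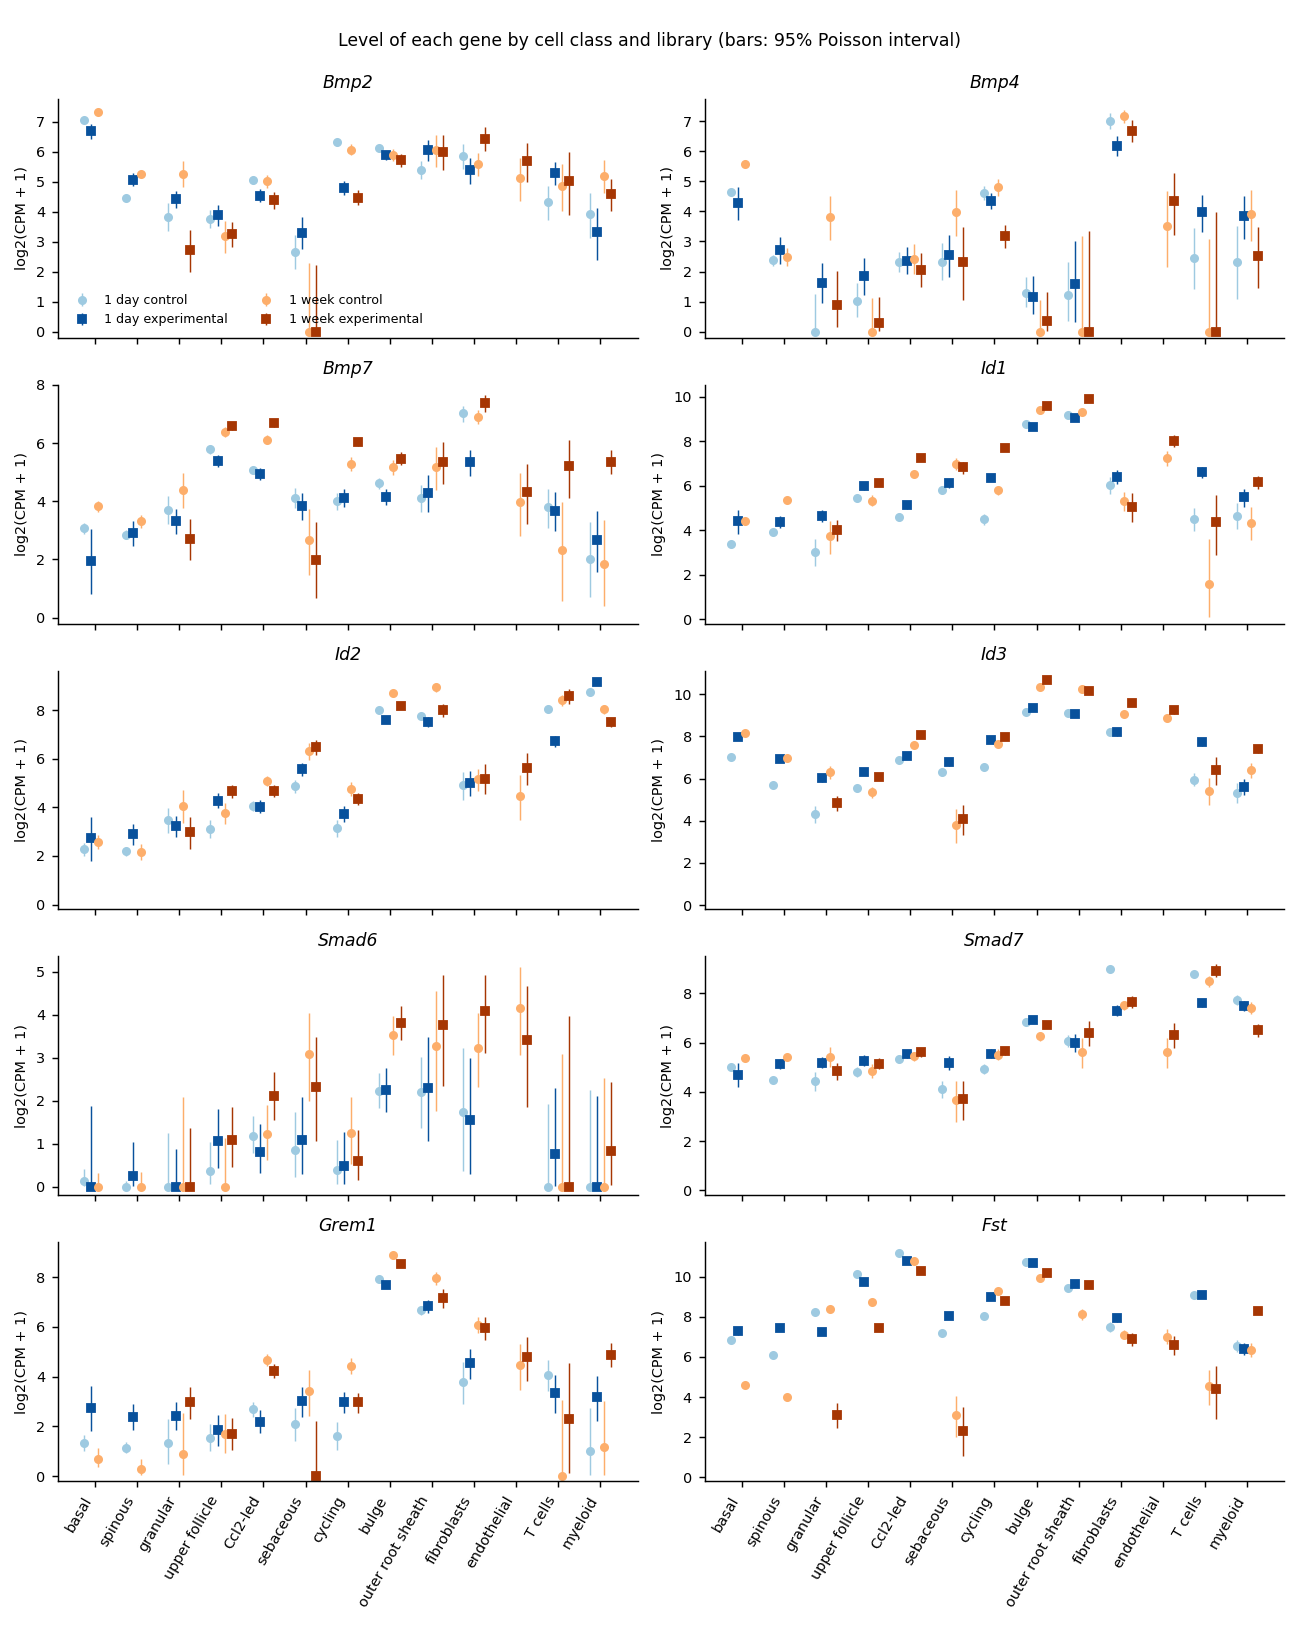
Level of each of the 10 genes, as log2(CPM + 1), in each class of at least 50 cells (x axis, names without "-like") in the 4 libraries; bars are 95% Poisson intervals. Bmp2 is highest in basal-like cells of both controls, Bmp4 in fibroblast-like cells, and Grem1 in bulge-like cells of all 4 libraries.

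Among the ligands, Bmp2 was highest by class in the interfollicular basal-like cells of both controls. In the 1-day control it stood at 133 CPM in basal-like cells, 78.1 CPM in cycling cells and 68.5 CPM in bulge-like cells, and the intervals of the cycling and bulge-like levels overlapped. At 1 week the control gave 159.9 CPM in basal-like, 65.8 CPM in cycling and 57.8 CPM in bulge-like cells. Basal-like cells thus held 1.94 times the bulge-like level at 1 day and 2.77 times at 1 week. The bulge-like level was an average over unlike sub-clusters, which are described below. Over both libraries the Ptgs2-led one held 118.5 CPM of Bmp2 at 1 day and 85.7 CPM at 1 week, and the Aspn-led one 11.8 and 13.5 CPM. Upper-follicle-like cells were low, with 12.6 and 8.04 CPM in the controls.

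Bmp4, a ligand also made by dermal cells, was highest in the fibroblast-like stroma, with 128 CPM at 1 day and 141 CPM at 1 week in the controls, and next among the larger classes came the basal-like cells with 24.2 and 47.1 CPM. Bulge-like cells held 13 Bmp4 UMIs in the 1-day control, or 1.46 CPM, and 0 in the 1-week control, where a count of 0 allows up to 0.876 CPM. The basal-like level was 16.6 times the bulge-like level at 1 day, and 53.8 times the 0.876 CPM that a count of 0 allows at 1 week.

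Bmp7 shared the fibroblast-like maximum, 128 and 119 CPM in the controls. Unlike Bmp4, it was lower in basal-like cells than in bulge-like and upper-follicle-like cells. It was low in basal-like cells, 7.37 and 13.2 CPM, and highest among keratinocytes in upper-follicle-like cells, 54.0 and 83.0 CPM. The Ccl2-led keratinocytes had 32.5 and 68.5 CPM, and the other unclassed keratinocytes 36.6 CPM on 61 UMIs in the 1-day control. Bulge-like cells had 23.6 and 34.7 CPM, which was 3.20 and 2.62 times the basal-like level.

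The stromal ligand levels at 1 week came from 2 clusters of fibroblast-like cells. In the cluster rich in Crabp1, a gene of the dermal papilla, Bmp4 was 320 CPM and Bmp7 255 CPM in the control. The other cluster held 28.7 CPM of Bmp4 in the control and more Grem1, at 99.6 CPM. The cells came from the epidermis, so the fibroblast-like cells do not represent the dermis as a whole.

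The Id genes were higher in bulge-like and outer-root-sheath/inner-bulge-like cells than in basal-like cells. Upper-follicle-like cells did not share this for Id3, with 45.5 CPM at 1 day and 39.9 CPM at 1 week in the controls, below the basal-like 129 and 282 CPM. Fos, which is induced by tissue dissociation, differed between these classes in the same direction. Over the hashtags of the 1-day control, described below, it ranged from 768 to 1304 CPM in bulge-like cells. The ranges were 658 to 1093 CPM in outer-root-sheath/inner-bulge-like and 44.9 to 54.2 CPM in basal-like cells. The part of dissociation in the Id levels of these classes was not tested. In the outer-root-sheath/inner-bulge-like class Krt15, a keratin of bulge cells, was the highest of all sub-clusters of bulge-like cells, at 14068 CPM at 1 day and 27211 CPM at 1 week over both libraries, with Cd34 at 473 and 755 CPM and Krt75, an inner bulge and companion layer keratin, at 32.5 and 119 CPM. Id1 stood at 434 CPM in bulge-like and 578 CPM in outer-root-sheath/inner-bulge-like cells of the 1-day control against 9.48 CPM in basal-like and 14.1 CPM in spinous-like cells. At 1 week it was 678 and 643 CPM in bulge-like and outer-root-sheath/inner-bulge-like cells, whose intervals overlapped, against 20.3 CPM in basal-like cells. The bulge-like level exceeded the basal-like level by 45.8 times at 1 day and 33.4 times at 1 week.

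Id2 had a still larger ratio between these compartments, with 252 CPM in bulge-like and 3.80 CPM in basal-like cells at 1 day, and 411 against 5.01 CPM at 1 week, ratios of 66.4 and 82.0. It was also high outside the epithelium: myeloid-like cells had 425 CPM and T-cell-like cells 262 CPM in the 1-day control, where both were above or close to the bulge-like level. Id3 was the broadest of these targets. It reached 579 and 1309 CPM in bulge-like cells, but basal-like cells also held it, so the excess was 4.48 times at 1 day and 4.64 times at 1 week.

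Counted per cell at an equal depth of 2000 UMIs, 40.4% of 2139 bulge-like cells in the 1-day control held a UMI of Id1, against 4.40% of 91 T-cell-like cells, which are not known for this gene. The median depths before thinning were 2772 and 3003 UMIs, and 1098 bulge-like and 660 T-cell-like cells were too shallow to use. At 1 week 53.2% of 667 bulge-like cells held Id1, and 0 of 110 T-cell-like cells did, which allows a share of up to 2.73%. Without thinning the bulge-like shares were 44.7% and 64.8%, at median depths of 2342 and 3389 UMIs.

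RefSeq promoters of the GRCm38.p6 assembly, 250 bases before to 50 after the gene start, were on hand for 5 of the 10 genes: Bmp4, Id2, Id3, Smad6 and Grem1. RefSeq's gene starts are those of the GENCODE positions given at the end for Bmp4 and Smad6, but not for Id2, Id3 and Grem1. The windows of Id2 and Id3 lie inside the GENCODE genes. The 3 shown are those of genes with high levels in bulge-like cells, because they let the follicle-enriched genes be compared in sequence. Capitals mark GGCGCC, a GC-rich BMP-Smad motif, and CAGAC or its complement GTCTG, which holds the Smad-binding letters; both strands were searched. Id3 lies at chr4:136143572-136143871 on the plus strand, Id2 at chr12:25096043-25096342 on the minus strand and Grem1 at chr2:113758599-113758898 on the minus strand.
Id3: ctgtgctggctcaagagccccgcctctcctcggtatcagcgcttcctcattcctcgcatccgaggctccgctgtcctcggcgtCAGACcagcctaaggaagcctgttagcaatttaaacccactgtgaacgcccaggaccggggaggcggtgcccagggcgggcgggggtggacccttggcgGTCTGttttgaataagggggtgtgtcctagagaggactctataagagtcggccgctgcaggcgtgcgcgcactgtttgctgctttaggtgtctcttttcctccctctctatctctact
Id2: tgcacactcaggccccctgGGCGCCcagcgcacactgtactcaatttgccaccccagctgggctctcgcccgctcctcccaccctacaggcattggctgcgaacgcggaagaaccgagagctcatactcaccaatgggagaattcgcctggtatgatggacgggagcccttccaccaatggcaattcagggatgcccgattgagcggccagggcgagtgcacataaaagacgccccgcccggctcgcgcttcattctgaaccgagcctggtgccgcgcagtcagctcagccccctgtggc
Grem1: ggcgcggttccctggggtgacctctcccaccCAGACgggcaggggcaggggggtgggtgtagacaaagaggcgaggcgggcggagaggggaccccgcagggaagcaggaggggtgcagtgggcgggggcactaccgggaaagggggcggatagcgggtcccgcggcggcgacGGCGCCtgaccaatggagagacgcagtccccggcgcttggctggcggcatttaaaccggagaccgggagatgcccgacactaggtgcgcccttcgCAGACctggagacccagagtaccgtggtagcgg
Id3 held 2 matches to CAGAC and 0 to GGCGCC, Id2 held 1 GGCGCC and 0 CAGAC, and Grem1 held 1 GGCGCC and 2 CAGAC. Of 32851 mouse promoters of this length, 11.9% held GGCGCC and 49.6% held CAGAC on either strand, so neither set of letters is rare. The palindrome GTCTAGAC, present in 0.213% of promoters, occurred once in that of Smad6.

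Smad6 was the scarcest of the 10 genes in the keratinocytes of both controls. The 1-day control held 68 UMIs over 20512 keratinocytes, or 0.631 CPM, of which 33 UMIs fell in bulge-like cells at 3.70 CPM. In the 1-week control, bulge-like cells had 10.5 CPM and endothelial-like cells 16.9 CPM, with overlapping intervals, whereas basal-like cells had 0 UMIs. Smad7, which also damps TGF-beta signals, was highest outside the keratinocytes: 512 CPM in fibroblast-like and 438 CPM in T-cell-like cells at 1 day, and 358 CPM in T-cell-like cells at 1 week. Among keratinocytes it was more even than the Id genes, with 114 and 75.3 CPM in bulge-like cells and 31.0 and 40.5 CPM in basal-like cells, 3.70 and 1.86 times apart.

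Grem1, the first of the antagonists, had a larger measured ratio of bulge-like to basal-like level than the other genes in the 1-day control. The log2 ratio of Smad6 there, on 33 bulge-like and 2 basal-like UMIs, had an interval of 3.34 to 8.41. This spanned the Grem1 interval of 6.84 to 7.89, so Smad6 could not be ranked against Grem1. At 1 week Smad6, with 36 bulge-like and 0 basal-like UMIs, was 51.0-fold higher in bulge-like cells with the 0 set to 3 counts. It could not be ranked against Grem1 at that time either. In bulge-like cells Grem1 reached 244 CPM in the 1-day control and 469.8 CPM in the 1-week control. Outer-root-sheath/inner-bulge-like cells followed with 100.1 and 246 CPM, and their intervals did not reach those of the bulge-like cells. Basal-like cells held 32 Grem1 UMIs at 1 day and 9 at 1 week, levels of 1.50 and 0.618 CPM, and the bulge-like level was 162 times the basal-like level at 1 day and 760.5 times at 1 week. Fibroblast-like cells had 12.7 and 66.1 CPM. A UMI of Grem1 was found in 30.3% of bulge-like cells thinned to 2000 UMIs at 1 day and in 50.8% at 1 week, against 3.30% and 0 of 110 T-cell-like cells.

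Fst was not confined to bulge-like cells. It was highest in the Ccl2-led keratinocytes, a class that could not be named and that has Fst itself among its leading genes, first at 1 week, with 2363 CPM at 1 day and 1756 CPM at 1 week in the controls, followed by bulge-like cells with 1742 and 990 CPM. Upper-follicle-like cells had 1126 and 422 CPM. Basal-like cells stood at 114 and 23.0 CPM, which put the bulge-like level at 15.3 times theirs at 1 day and 43.0 times at 1 week. In the 1-day T-cell-like cells Fst also read 545 and 538 CPM in the control and experimental library, so that values of this size at 1 day do not separate a class from free RNA; at 1 week the T-cell-like values were 22.1 and 19.8 CPM.

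Within the bulge-like cells the ligands and antagonists were split among sub-clusters. Each was named by its leading gene, and these sub-clusters were drawn from the same cells, so their differences are a description. The Aspn-led cells had the highest Fst in all 4 libraries, 3735 and 3288 CPM at 1 day, then 2846 and 2581 CPM. They also had the highest Bmp7, at 56.8 and 39.5 CPM and then 106 and 117 CPM, and the lowest Bmp2, between 11.3 and 14.1 CPM. Their bulge markers were weak. Lgr5, a leading gene of bulge-like clusters at both times, was lowest in them, at 16.7 CPM at 1 day and 52.1 CPM at 1 week over both libraries. Cd34 was 204 and 312 CPM. Cst6 and Crabp2 were among their leading genes at 1 day and among those of upper-follicle-like cells. The Abi3bp-led cells, low in the bulge marker Cd34, had little Grem1: 37.1 and 31.5 CPM at 1 day, then 58.0 and 66.6 CPM. The Hbb-bs-led cells at 1 day and the Acta1-led cells at 1 week had the highest Fos, with 5199 and 9845 CPM in the controls, and Id1 in the same cells was 781 and 1034 CPM, the highest of any sub-cluster of those controls. Skeletal muscle genes, namely Acta1, Mylpf, Tnnc2, Myl1 and Tnni2, were among the leading genes of the Acta1-led cells. Fos is induced by tissue dissociation, and its part in the Id1 level was not tested.

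**Figure D2:**
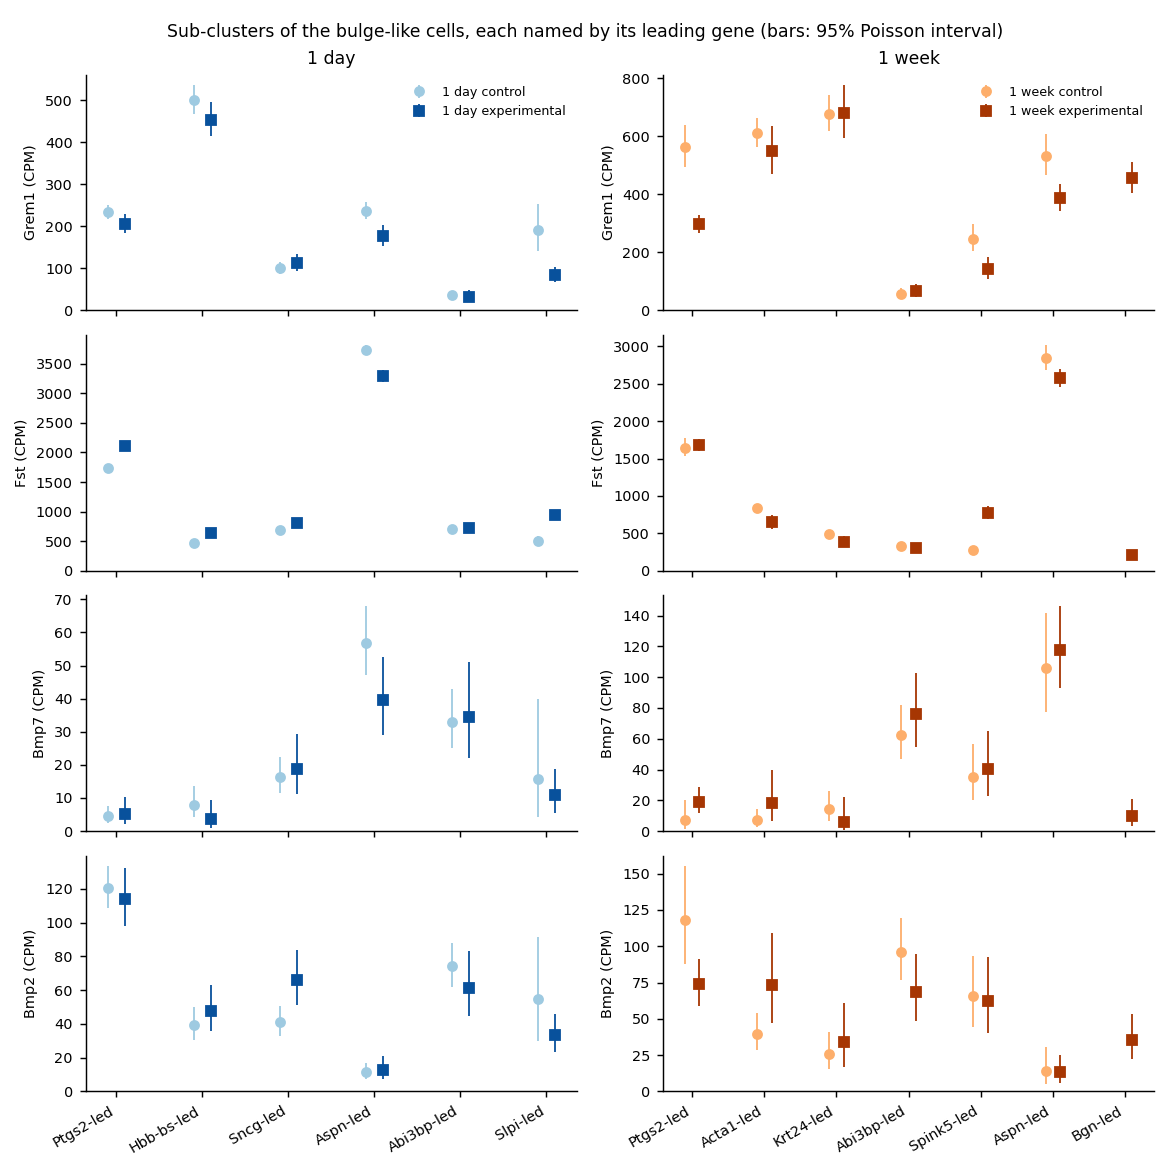
CPM of Grem1, Fst, Bmp7 and Bmp2 in the sub-clusters of bulge-like cells (x axis, named by leading gene) at 1 day (left) and 1 week (right); circles are control, squares experimental, bars 95% Poisson intervals, and the Sncg-led cells at 1 day and Spink5-led cells at 1 week are the outer-root-sheath/inner-bulge-like class. Aspn-led cells are highest for Fst and Bmp7 and lowest for Bmp2, and Abi3bp-led cells are lowest for Grem1.

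Experimental and control libraries were then compared over all keratinocytes within each time point. At 1 day, 0 of the 10 genes were past 2-fold, where 5.84% of 14732 genes were past 2-fold higher and 3.27% past 2-fold lower. The targets Id3 and Id1 and the inhibitor Smad7 were higher and the ligands Bmp2 and Bmp4 lower, all by less than that. Id3 went from 134 to 219 CPM (log2 ratio 0.71, 0.67 to 0.74), Smad7 from 35.5 to 55.4 CPM (0.64, 0.58 to 0.71) and Id1 from 69.7 to 97.0 CPM (0.48, 0.43 to 0.52). Bmp2 went from 51.4 to 33.0 CPM (-0.64, -0.71 to -0.57) and Bmp4 from 8.89 to 6.56 CPM (-0.44, -0.60 to -0.28). The Bmp4 ratio turned to 0.14 with Krt8-led cells counted as keratinocytes and to 0.11 over all cells, and was -0.11 at control class shares. Over 16 alternative settings of the processing, the Id1 ratio ran from 0.03 to 1.06 and that of Id3 from 0.34 to 0.95. Smad7 ran from 0.27 to 0.91 and Bmp2 from -0.83 to -0.19. Fst, Bmp7, Grem1 and Id2 had log2 ratios between -0.27 and -0.18, and that of Smad6 was 0.06 (-0.50 to 0.62). Over the same keratinocytes Fos went from 309 to 612 CPM, and its part in the Id values was not tested.

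At 1 week the spread was wider. Of the 10 genes, 3 were past 2-fold higher, against 12.8% of 14060 genes, and 2 past 2-fold lower, against 5.33%. The higher ones were Bmp7, from 26.5 to 65.9 CPM (log2 ratio 1.32, 1.21 to 1.42), Id1, from 94.8 to 245 CPM (1.37, 1.31 to 1.43), and Smad6, from 1.26 to 3.53 CPM on 59 and 83 UMIs (1.48, 0.98 to 1.99). The lower ones were Bmp2, from 76.2 to 21.8 CPM (-1.80, -1.94 to -1.67), and Bmp4, from 19.3 to 3.32 CPM (-2.54, -2.89 to -2.20). Fst (0.74), Grem1 (0.65), Id3 (0.61) and Id2 (0.57) were higher by less than 2-fold, and Smad7 stood at 42.6 and 51.6 CPM (0.28). The median log2 ratio of all genes tested was 0.18, and TMM scaling lowered every ratio by 0.21 without changing any of the 10 directions.

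**Figure D3:**
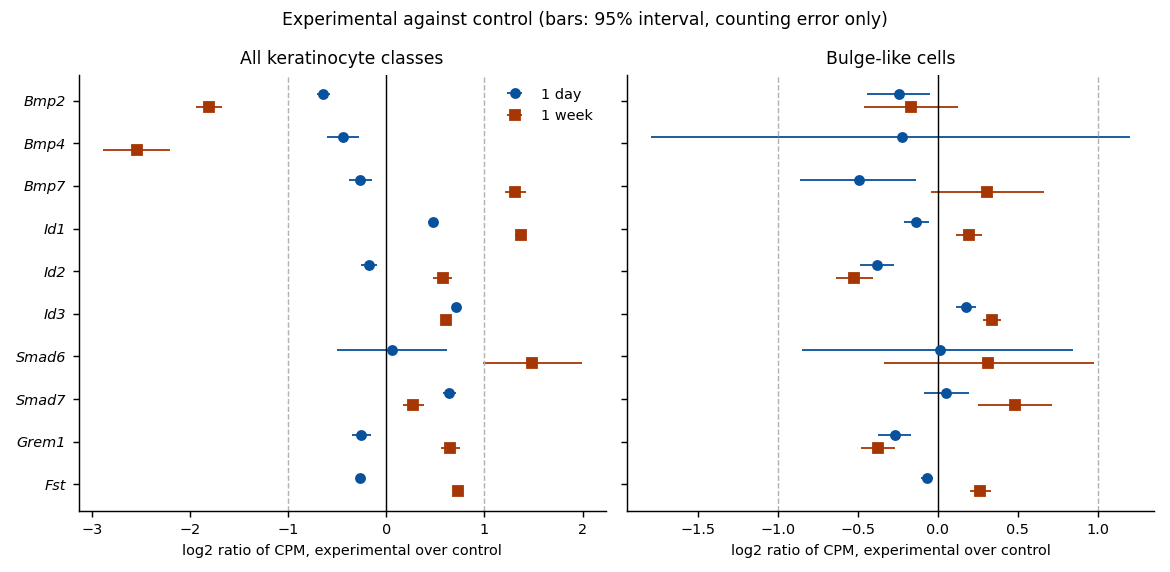
Log2 ratio of experimental over control CPM for each gene over all keratinocytes (left) and in bulge-like cells (right); circles are 1 day, squares 1 week, bars 95% intervals for counting error, and dashed lines mark 2-fold. Over keratinocytes at 1 week 5 genes lie outside the dashed lines, and in bulge-like cells none does at either time. Bmp4 had too few UMIs to be tested in bulge-like cells at 1 week.

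The class makeup of the libraries differed at the same time. Basal-like cells numbered 4656 of 20512 keratinocytes in the 1-day control and 410 of 16086 in the experimental library, and 2026 of 5842 against 16 of 2441 at 1 week. With each class of at least 50 cells in both libraries given its control share, 1 of the 10 genes remained past 2-fold at 1 week, Bmp4 with a log2 ratio of -1.53. Bmp2 was then at -0.74, Id1 at 0.48, Bmp7 at 0.44 and Smad6 at 0.38, whereas Grem1 (-0.43), Fst (-0.35) and Id2 (-0.47) took the opposite direction to that over all keratinocytes. This calculation left out the basal-like and spinous-like classes at 1 week, which had too few experimental cells, and the same 7 classes at their own shares gave -1.42 for Bmp4, -0.86 for Bmp2 and 0.32 for Id1. Of those 7 classes the cycling keratinocytes, with Krt8 among their leading genes, held the most Bmp4 UMIs, 97 in the control and 47 in the experimental library. At 1 day the 11 such classes were all keratinocyte classes but the Slpi-led one. At their own shares 4 genes turned direction, Fst to 0.39, Bmp7 to 0.30, Grem1 to 0.43 and Id2 to 0.43, and with classes named from markers only these were at 0.84, 0.32, 0.73 and 0.64 and Smad6 was past 2-fold at 1.13. The 11 classes at control shares gave 0.65 for Id3, 0.27 for Smad7, 0.23 for Id1 and -0.19 for Bmp2.

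**Figure D4:**
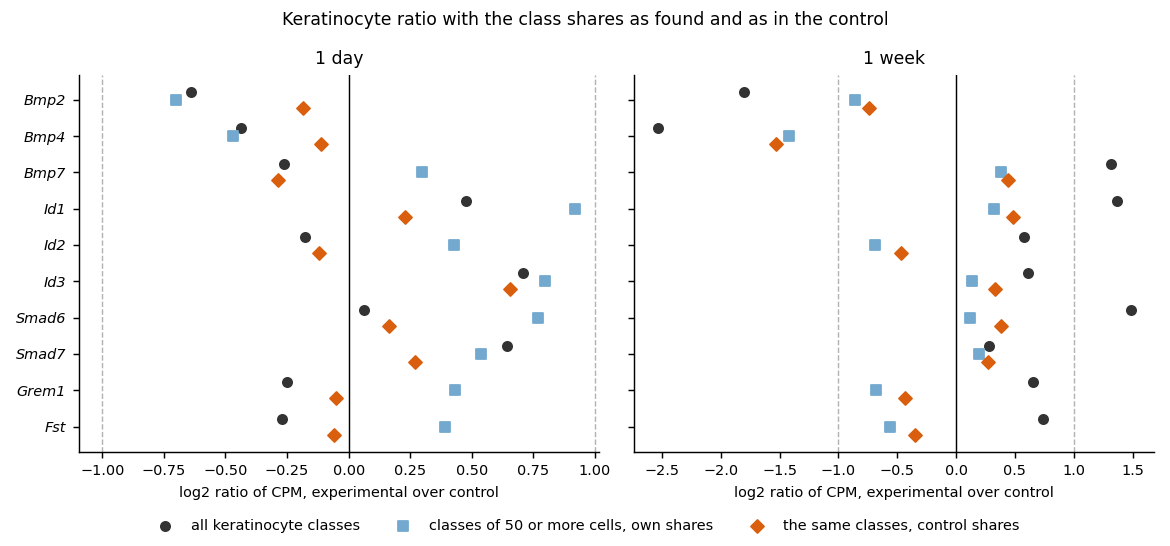
Log2 ratio over keratinocytes at 1 day (left) and 1 week (right) for each gene, with all classes as found (circles), with the classes of 50 or more cells in both libraries at their own shares (squares), and with the same classes at the control shares (diamonds); dashed lines mark 2-fold. At 1 week Bmp7, Id1 and Smad6 lie outside the dashed lines only as circles, and Bmp4 lies below them in all 3 calculations.

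In bulge-like cells, which numbered 3237 and 1951 at 1 day and 795 against 728 at 1 week, 0 of the 10 genes were past 2-fold at 1 day. At 1 week 0 of the tested genes were, and Bmp4, with 0 and 1 UMIs, was not tested. The shares over all genes tested at 1 day were 2.98% higher and 1.3% lower. Those at 1 week were 4.02% higher against 2.76% lower. Id2 and Grem1 were lower at both times: Id2 went from 252 to 194 CPM (log2 ratio -0.38, -0.48 to -0.27) and from 411 to 286 CPM (-0.52, -0.64 to -0.41), and Grem1 from 244 to 202 CPM (-0.27, -0.37 to -0.16) and from 469.8 to 363 CPM (-0.37, -0.48 to -0.27). Id3 was higher at both, from 579 to 655 CPM (0.18) and from 1309 to 1659 CPM (0.34). Bmp7 had the largest 1-day ratio, from 23.6 to 16.8 CPM (-0.49, -0.86 to -0.13), which ran up to -0.09 over the alternative settings. At 1 week Bmp7 was at 0.31. Smad7 was at 0.05 at 1 day and 0.48 at 1 week, the latter from 0.05 to 0.70 over the alternative settings. Id1 went from 434 to 396 CPM at 1 day, then from 678 to 775 CPM, and Fst from 1742 to 1666 CPM and from 990 to 1189 CPM. At an equal depth of 2000 UMIs, the share of bulge-like cells with a Grem1 UMI was 30.3% against 24.0% at 1 day and 50.8% against 40.6% at 1 week, and that with an Id2 UMI was 27.9% against 21.9% and 43.8% against 31.4%.

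The makeup of the bulge-like class shifted at 1 week: sub-clusters led by Acta1 and Krt24, with the highest Id2 and Grem1 of the control, held 243 and 202 control but 74 and 87 experimental cells, and the Ptgs2-led one held 112 and 246. With the 5 sub-clusters of at least 50 cells in both libraries at their control shares, the 1-week log2 ratio of Id2 was 0.0042, that of Grem1 -0.23 and that of Fst -0.17, against 0.26 for Fst as found. The same calculation at 1 day gave -0.36 for Id2, -0.23 for Grem1 and 0.06 for Fst. The 1-week difference in Grem1 within the bulge-like cells was largest in the Ptgs2-led sub-cluster, at 564 and 296 CPM, whereas the cluster led by Krt24 held 677 and 680 CPM. A Bgn-led sub-cluster held 103 cells, all in the 1-week experimental library. Its Trp63 level of 40.0 CPM was the lowest of any sub-cluster, and it had the highest Id3, 2423 CPM, and the lowest Fst, 206 CPM, of that library. In the 1-day experimental library the Slpi-led sub-cluster held 281 cells against 54 in the control, and these had 84.7 CPM of Grem1 against 192 CPM.

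Outer-root-sheath/inner-bulge-like cells, 779 and 362 at 1 day, had 0 of 8 tested members past 2-fold, where 2.33% of genes were past 2-fold higher and 2.34% lower. At 1 week, with 123 and 93 cells, Fst was past 2-fold higher, from 279 to 771 CPM (log2 ratio 1.47, 1.16 to 1.77), against 4.44% of genes, and 0 members were lower, against 4.31%. Id2 went from 486 to 253 CPM (-0.94, -1.30 to -0.60) and Grem1 from 246 to 143 CPM (-0.79, -1.27 to -0.32). Id1 went from 643 to 956 CPM (0.57, 0.35 to 0.80).

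In cycling keratinocytes, a state rather than a compartment, Bmp2 was past 2-fold lower and Id1 past 2-fold higher at both times. At 1 week this class, 288 control and 296 experimental cells, had Krt8, Sprr2a3 and Nppb among its leading genes. Krt8-led clusters were left out, but this one was named by its cycling markers and kept. The part of cells with Krt8 in its 1-week ratios was not tested. Bmp2 went from 78.1 to 26.7 CPM at 1 day (log2 ratio -1.55, -1.83 to -1.28), where 2.65% of genes were past 2-fold lower, and from 65.8 to 21.2 CPM at 1 week (-1.64, -1.96 to -1.32), where 6.79% were. Id1 went from 21.5 to 81.2 CPM (1.92, 1.63 to 2.20) and from 55.1 to 204 CPM (1.89, 1.67 to 2.12), where 5.13% and 6.75% of genes were past 2-fold higher. T-cell-like cells read 21.9 and 96.8 CPM of Id1 at 1 day, no lower than the cycling cells, but 2.01 and 19.8 CPM at 1 week; the part of free RNA in the 1-day ratio was not tested. Bmp4 stood at 23.4 and 19.5 CPM at 1 day but at 26.8 and 7.97 CPM at 1 week (-1.75). Id3 was past 2-fold higher at 1 day, from 92.0 to 223 CPM, beside 61.1 and 212 CPM in T-cell-like cells, and stood at 199 and 254 CPM at 1 week. Grem1 was past 2-fold higher at 1 day and past 2-fold lower at 1 week, but on 13 and 35 UMIs and on 74 and 40 UMIs, and the 1-day ratio of 1.75 was 0.60 without doublet removal.

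Basal-like cells at 1 day had 2 of 9 tested members past 2-fold higher, against 5.09% of genes, and 1 lower, against 4.98%. The higher ones were Id1, at 9.48 and 20.03 CPM in the control and experimental library, and Grem1, at 1.50 and 5.72 CPM on 32 and 8 UMIs. The lower one was Bmp7, at 7.37 and 2.86 CPM on 157 and 4 UMIs. Id1 (log2 ratio 1.08, 0.45 to 1.65) was at 0.71 by the mean over cells and 0.98 with TMM scaling, and Bmp7 (-1.36) at -0.91 with only barcodes of at least 3000 UMIs. Id3 stood at 129 and 253 CPM there, Bmp2 at 133 and 102 CPM and Bmp4 at 24.2 and 18.6 CPM. Spinous-like cells at 1 day had 3 of 9 tested members past 2-fold higher, against 5.41% of genes, and 0 lower, against 4.17%: Id3 from 51.0 to 119 CPM (log2 ratio 1.22), Fst from 68.4 to 173 CPM (1.34) and Grem1 from 1.20 to 4.20 CPM (1.80). Without doublet removal Id3 was at 0.91 and Fst at 0.55, and by the mean over cells Grem1 was at 0.86 and Fst at 0.998. The spinous-like class joins 3 clusters, and the one led by Orm1 held 1045 of its 5241 control cells but 552 of its 1092 experimental cells. The Id3, Fst and Grem1 levels of spinous-like cells lay below those of T-cell-like cells in the same libraries. In T-cell-like cells Id3 also went from 61.1 to 212 CPM and Id1 from 21.9 to 96.8 CPM. The Id1 levels of basal-like and spinous-like cells thus lay below those of T-cell-like cells too. The part of free RNA in these ratios was not tested. Whether the Id3 of T-cell-like cells was free RNA or their own was not tested either. Granular-like cells at 1 day, 332 and 845, had 3 of 8 tested members past 2-fold higher, against 5.17% of genes, and 0 lower, against 2.65%. They were Id1, from 7.17 to 24.0 CPM (1.74), Id3, from 18.9 to 64.1 CPM (1.77), and Grem1, from 1.51 to 4.34 CPM on 4 and 19 UMIs, again below the T-cell-like levels. The Grem1 ratio of 1.52 fell to 0.11 without doublet removal. At 1 week the experimental library held 16 basal-like and 6 spinous-like cells, too few to describe. Granular-like cells at 1 week numbered 63 in the control, where T-cell markers summed to 971 CPM against 56.1 CPM in the experimental library, and the ratios of Bmp2, Bmp7, Id3, Smad7 and Fst turned direction without doublet removal, while those of Id1 and Id2 did not.

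Upper-follicle-like cells had Id2 past 2-fold higher at 1 day, from 7.65 to 18.4 CPM (log2 ratio 1.27, 0.76 to 1.79), against 3.28% of genes, with 0 members lower (1.24% of genes). The Id2 ratio was 0.77 without doublet removal and 0.998 at Leiden resolution 2. At 1 week Id2 was at 12.5 and 24.3 CPM (0.95) and 0 members were past 2-fold higher (7.16% of genes). That Id2 ratio ranged from -0.095 to 1.20 over 10 alternative settings. Fst was past 2-fold lower there at 1 week, from 422 to 172 CPM (-1.30, -1.43 to -1.17), against 2.37% of genes, and stood at 1126 and 872 CPM at 1 day. The 1-week ratio was -0.72 at Leiden resolution 0.5. Fst was thus lower in upper-follicle-like cells and higher in outer-root-sheath/inner-bulge-like cells of the same 1-week libraries. In the Ccl2-led keratinocytes Fst went from 2363 to 1760 CPM at 1 day (-0.42), then from 1756 to 1238 CPM (-0.50), while Bmp7 stood at 32.5 and 29.6 CPM and then at 68.5 and 102 CPM (0.58). Smad6 was past 2-fold higher in these cells at 1 week, against 4.69% of genes (2.97% lower), but on 7 and 17 UMIs with an interval of -0.03 to 2.83, and at 0.91 by the mean over cells.

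In the fibroblast-like stroma at 1 day, 470 control and 274 experimental cells, Bmp7 went from 128 to 39.5 CPM (log2 ratio -1.70, -2.26 to -1.17) and Smad7 from 512 to 156 CPM (-1.71, -1.98 to -1.45), both past 2-fold lower against 14.8% of genes, with 0 higher, against 10.9%. Bmp4 went from 128 to 71.3 CPM (-0.85). The median depth of these cells was 1133.5 UMIs in the control and 2956 UMIs in the experimental library. In the same cells the keratinocyte marker list summed to 11378 and 29494 CPM, all 14 markers being detected in both, and the dermal papilla list to 2087 and 534 CPM, with 8 and 7 of 9 markers detected; their part in these ratios was not tested. At 1 week 0 of the 10 genes were past 2-fold in 336 and 197 fibroblast-like cells, where 4.83% of genes were past 2-fold higher and 3.83% lower. There Bmp4 stood at 141 and 101 CPM, Bmp7 at 119 and 163 CPM, Grem1 at 66.1 and 60.9 CPM and Id3 at 535 and 779 CPM, the last with a log2 ratio of 0.54 (0.37 to 0.71).

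The 1-day libraries carried 3 hashtag antibodies with counts, and the labels do not say what they mark. No hashtag could be assigned to 38.8% of control and 62.6% of experimental cells, and only 14.1% and 12.9% of bulge-like cells had one. Over keratinocytes, Id3 ranged from 81.4 to 101 CPM over the control hashtags and from 159 to 187 CPM over the experimental ones. The ranges did not overlap for Id1 (24.4 to 42.1 against 59.8 to 71.7 CPM) or for Smad7 (25.4 to 30.4 against 51.2 to 56.6 CPM) either. They overlapped for the other 7 genes, Bmp2 among them (32.0 to 65.7 against 28.3 to 32.8 CPM). Fos ranged from 133 to 201 CPM and from 375 to 512 CPM over the same hashtags. In bulge-like cells the Grem1 ranges were 175 to 208 CPM in control and 102 to 142 CPM in experimental cells. The ranges of the other 9 genes overlapped there, among them Id2 (98.9 to 261 against 65.7 to 142 CPM) and Id3, whose medians were 390 and 364 CPM. The bulge-like cells with a hashtag did not have the levels of the whole class given above. Their Grem1 and Id3 ranges lay below those levels in both libraries, and their control Fst range, 2241 to 3166 CPM, lay above. The hashtag ranges therefore do not describe the bulge-like class. The share of all genes whose ranges did not overlap was not computed, so these counts have no background. Over the keratinocytes assigned to a hashtag the log2 ratio of Id1 was 1.06, against 0.48 over all keratinocytes. Hashtags share a library and are not replicates of it.

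**Figure D5:**
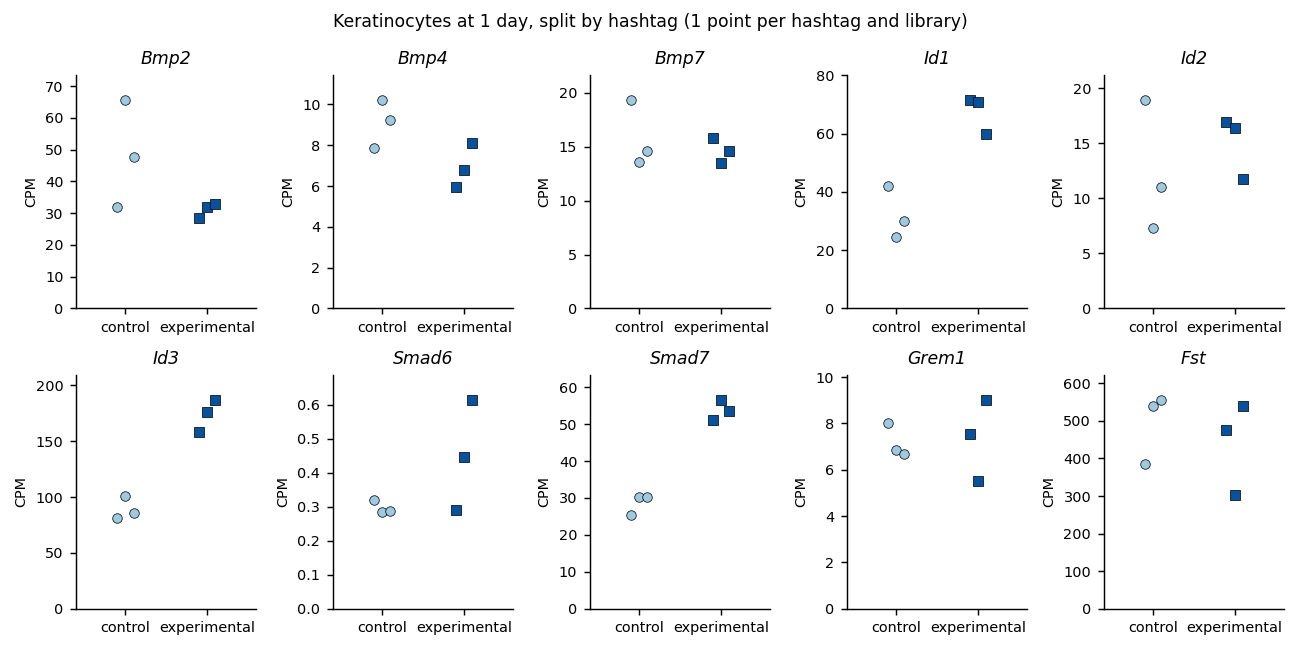
CPM over keratinocytes at 1 day for each gene, with 1 point for each of 3 hashtags in the control (circles) and experimental (squares) library; the y axes start at 0. The points of the libraries do not overlap for Id1, Id3 and Smad7.

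Beside the 10 genes, the wider BMP pathway list held 57 genes with them included, covering ligands, receptors, Smads, inhibitors, antagonists and targets. Over keratinocytes at 1 day, 48 were tested, 3 were past 2-fold higher and 1 lower, beside 5.84% and 3.27% of all genes, and the median log2 ratio was -0.11 against -0.01 over all genes. At 1 week 47 were tested, 12 were past 2-fold higher and 5 lower, beside 12.8% and 5.33% of all genes, with a median of 0.47 against 0.18. With classes of at least 50 cells in both libraries the 12 became 2 at control shares and 1 at their own shares, where the median was -0.15. By role, 5 of 10 targets were past 2-fold higher at 1 week and 1 lower, with a median of 0.94, and of 7 tested ligands 3 were higher and 3 lower. In bulge-like cells the same list had 2 higher and 1 lower of 44 at 1 day and 2 higher and 0 lower of 43 at 1 week, with medians of -0.01 and 0.09, where 2.98% and 1.3% of all genes at 1 day and 4.02% and 2.76% at 1 week were past 2-fold higher and lower.

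Other pathway genes with at least 100 UMIs were past 2-fold over keratinocytes. At 1 day Tob1, an antiproliferative Smad partner, went from 65.7 to 139 CPM and Dlx3, a homeobox factor of the follicle and granular layer, from 1.82 to 3.98 CPM. Gdf10, a TGF-beta family ligand, went from 0.316 to 0.988 CPM. At 1 week Bmp3, an atypical ligand that can oppose other BMPs, went from 22.4 to 6.69 CPM (log2 ratio -1.74) and Gata3, a factor of epidermal differentiation, from 198 to 72.4 CPM (-1.45). Higher at 1 week were Bmp6, from 2.68 to 8.77 CPM, Dlx3, from 2.66 to 9.84 CPM, and Fstl1, from 4.91 to 10.7 CPM, together with Gdf10, Smad9 and Msx1. On the list of TGF-beta and activin genes, 1 of 16 tested was past 2-fold higher at 1 day, beside 5.84% of all genes, and 3 of 16 at 1 week, beside 12.8%. They were Inhba, an activin subunit, from 5.97 to 12.2 CPM at 1 day, then from 1.50 to 13.2 CPM (3.14), Inhbb, another subunit, from 5.85 to 32.8 CPM at 1 week (2.49), and Ltbp3, which holds latent TGF-beta, from 27.0 to 60.6 CPM.

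For each of the 10 genes, the most similar patterns over named classes were sought among 7626 genes, by the mean over the 4 libraries of Pearson's r of log2(CPM + 10). The classes of a library share its depth and free RNA, so r is a description. Grem1 was most like Trabd2b (mean r 0.97) and Ism1 (0.95), and Bmp4 most like Col23a1 (0.94). Id3 was most like Nbl1 (0.93), itself a BMP antagonist of the wider list, and Id1 most like Tbx1 (0.92), a bulge marker, and Jag1 (0.91). Smad7 was most like Lgals1 (0.92), Smad6 like Flnc (0.87), Id2 like Atf7ip (0.87), Fst like Aqp3 (0.86), Bmp2 like Strn3 (0.85) and Bmp7 like Lemd2 (0.82).

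In the genome (GRCm38), 4 of the 10 genes lie on chromosome 2: Grem1 at 113746164 to 113758646, Bmp2 at 133552159 to 133562885, Id1 at 152736251 to 152737410 and Bmp7 at 172868012 to 172940321. Id3 lies on chromosome 4 at 136143497 to 136145755, Smad6 on chromosome 9 at 63953076 to 64022059 and Id2 on chromosome 12 at 25093799 to 25097140. Fst lies on chromosome 13 at 114452290 to 114458951, Bmp4 on chromosome 14 at 46383520 to 46390669 and Smad7 on chromosome 18 at 75367529 to 75395935. The counts are of whole genes and do not separate exons or transcripts.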

How the data were processed

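Raw UMI counts, deposited as 4 matrices of genes by barcodes, were made by the authors with Cell Ranger 5.0.1 per the file headers. Seurat and the mm10 build are named in the submitters' processing notes. The 1-day matrices also hold hashtag counts. The lowest UMI count of a barcode was 500 in both controls, but 1368 at 1 day and 1059 at 1 week in the experimental libraries. With the same lowest count in both libraries of a time point, 167 of 168 ratios of the 10 genes stayed within their interval. Barcodes needed 500 UMIs, 300 genes and no more than 15% mitochondrial UMIs, and the highest-scoring 0.8% per 1000 barcodes by Scrublet were removed as doublets. This took 26.8% and 25.8% of barcodes at 1 day and 20.03% and 14.7% at 1 week, since the automatic threshold marked between 0.0402% and 99.8%. Each time point was clustered with scanpy 1.11.5 (2000 variable genes, 30 components, Leiden resolution 1), leaving out the 10 genes, their pathway and Trp63. Classes were named from fixed marker lists. The rules for low-UMI and mixed clusters, and the splitting of bulge-like clusters at resolution 0.5 into outer-root-sheath/inner-bulge-like cells where Krt75 and Fgf18 were at least 4-fold higher, were set after seeing the data.

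UMIs were summed per class and library. Levels carry exact Poisson intervals and ratios exact conditional binomial (Clopper-Pearson) intervals at 95%. Genes with at least 20 UMIs over both libraries were tested against 2-fold, and zeros were set to a floor of 3 counts. No p-value was computed, since each group is 1 library. The interval script was tested on simulated data. Shares used cells thinned to 2000 UMIs. Hashtag counts were divided by the median of that hashtag in the library. A barcode was assigned to a hashtag when its highest scaled count was at least 2 times the next. All 10 genes are named; of the wider lists, genes past 2-fold over keratinocytes with at least 100 UMIs; and for like patterns the top genes by mean correlation. The 10 genes and the lists were chosen with earlier results of these data known. Promoter sequences are from RefSeq (GRCm38.p6) and gene positions from GENCODE (GRCm38). TMM factors came from edgeR 4.0.16 in R 4.3.3.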

Additional observations from a re-analysis of the deposited data

Results flagged for a closer look

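For 13 pairs of a gene and a class, the ratio of experimental over control had opposite directions at 1 day and 1 week, with both intervals away from 0. The difference between the time points was not tested, and the kits differ between them, so time and kit cannot be told apart. The share of all genes with opposite directions in these classes was not computed, so the 13 pairs have no background. Over all keratinocytes these were Bmp7 (log2 ratio -0.26 at 1 day and 1.32 at 1 week), Id2 (-0.18 and 0.57), Grem1 (-0.25 and 0.65) and Fst (-0.27 and 0.74). With classes of at least 50 cells in both libraries at control shares, both times were below 0 for Id2 (-0.12 and -0.47), Grem1 (-0.05 and -0.43) and Fst (-0.06 and -0.35). At those classes' own shares the directions were opposite again but turned, at 0.43 and -0.69 for Id2, 0.43 and -0.68 for Grem1 and 0.39 and -0.57 for Fst. Bmp7 was above 0 at both times at own shares (0.30 and 0.38) and with classes named from markers only (0.32 and 1.39), and kept its opposite directions at control shares (-0.29 and 0.44). In bulge-like cells they were Id1 (-0.13 and 0.19) and Fst (-0.06 and 0.26), whose 1-day values were 0.21 and 0.10 without doublet removal, and that of Id1 0.04 with only barcodes of at least 3000 UMIs. At control shares of the sub-clusters the values of Fst were 0.06 and -0.17.

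In cycling keratinocytes the pairs were Id2 (0.65 and -0.41), Grem1 (1.75 and -1.59) and Fst (0.98 and -0.50), and in fibroblast-like cells Bmp7 (-1.70 and 0.46). The 1-day Fst ratio of cycling keratinocytes was 0.15 at the lowest of 10 alternative settings. In granular-like cells they were Bmp2 (0.62 and -2.76), Id3 (1.77 and -1.49) and Smad7 (0.77 and -0.60), of which the 1-week values rest on 63 control cells.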

How the results depend on the processing

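Each group had 1 library, so none could be left out in turn, and no paired analysis was possible because the labels give no replicate numbers. Over keratinocytes at 1 week, the count of the 10 genes past 2-fold, 5 as reported, was 2 without doublet removal (0 higher, 2 lower), 3 over all cells passing the filters, 3 with Krt8-led cells counted as keratinocytes, 6 (4 higher, 2 lower) with classes named from markers only, and 1 with classes of at least 50 cells at either the control shares or their own. At 1 day it was 0 as reported and 1 with classes named from markers only or with hashtag-assigned barcodes only. For the wider pathway list at 1 week, the 12 higher became 16 with named classes only, 15 with no minimum beyond 1 UMI, 6 without doublet removal, 7 with Krt8-led cells, 2 at control shares and 1 at own shares. The 5 lower became 1 at either shares, and the median log2 ratio became -0.15 at own shares. At 1 day the 3 higher became 9 with named classes only, 5 at own shares and 1 at control shares, and the 1 lower became 0 at a minimum of 100 UMIs or at control shares and 2 by the mean over cells. Ratios in granular-like cells at 1 week reversed without doublet removal (Bmp2 1.26, Bmp7 0.90, Id3 3.39, Smad7 1.29, Fst 2.38) and at Leiden resolution 2 (Bmp7 0.27, Id3 0.98, Smad7 0.54), and TMM scaling, which moved every ratio of that class by 0.81, turned Smad7 to 0.21. The cause was not tested. Of 168 ratios of the 10 genes, 168 moved by less than their interval without shared barcodes and with at most 10% mitochondrial UMIs, 155 under TMM scaling and 101 of 158 without doublet removal. Several settings were chosen after seeing the data: leaving out shared barcodes, named classes only, control or own shares of classes or bulge-like sub-clusters, hashtag-assigned barcodes and counting Krt8-led cells. Depth limits Smad6, which had 48 to 83 UMIs over the keratinocytes of a library.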
